A study of Mus musculus with 8 samples.

Results

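The genes for the proteins of the cytosolic ribosome were followed in white adipocytes isolated from the epididymal fat of mice. They were taken from the deposited table as the protein-coding rows whose symbol begins with Rpl, Rps or Rplp and a number, or is Rpsa, without the ribosomal S6 kinases and without symbols marked as pseudogenes. This gave 86 of 30387 rows. Of these, 46 encode proteins of the large subunit, 31 encode proteins of the small subunit, and 8 are paralogs with a symbol of their own (Rpl3l, Rpl6l, Rpl7l1, Rpl22l1, Rpl36al, Rpl39l, Rps27l and Rps27rt). The last one, Rps19bp1, met the rule by its symbol but encodes a protein that binds Rps19. Fau and Rack1, ribosomal proteins with other symbols, are described apart. Rpl10l and Rps4l are not analysed here.

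The study asked what the loss of the transcriptional coactivators YAP and TAZ does to adipocytes. RNA sequencing covered 8 libraries in 4 groups of 2. WT littermates and Ad-Yap/Taz-KO mice, which carry Adipoq-Cre together with floxed alleles of both genes (Yap fl/fl and Taz fl/fl), received normal chow (NC) or a high-fat diet (HFD) for 4 weeks, from an age of 5 weeks by the labels, while the methods of the study give a later start. The Cre is driven by the adiponectin promoter and is active in adipocytes, so that other cells of the fat pad keep both genes. The study counts as many mice as libraries in each group and describes its data as biological replicates.

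A ribosome is built from ribosomal RNA and a large set of proteins, nearly all of which are needed in equal amounts. The messenger RNAs of these proteins are short, abundant and stable, and most begin with a run of pyrimidines through which mTORC1 controls their translation in response to nutrients. Several of the proteins also act outside the ribosome, above all Rpl5, Rpl11 and Rpl23, which bind MDM2 and thereby stabilize p53 when assembly of ribosomes is disturbed.

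Values are normalized counts, in which the authors scaled the counts of each library by its size factor and then rounded them. The library sums lay between 14890264 and 20994246, and the step between low values gave an estimate of 13.99 to 22.32 M reads on genes per library (M, 1000000 reads). Yap1 lay between 2333 and 2776 in the 4 WT libraries and between 1549 and 2068 in the 4 of the knockout. Wwtr1, which encodes TAZ, lay between 4743 and 7121 in the former and between 1957 and 2707 in the latter. All 10 adipocyte markers examined were above 0 in every group. The 10 macrophage markers summed to 4381 and 4446 in WT NC, 15250 to 27500 in Ad-Yap/Taz-KO NC, 2034 and 2047 in WT HFD and 27232 to 29243 in Ad-Yap/Taz-KO HFD, so that this list moved with the genotype on both diets. In these bulk samples, fewer cells of a type and less RNA per cell cannot be told apart.

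Ribosomal protein genes held a small and rather even part of each library. They made up 0.532% and 0.551% of the normalized counts in WT NC, 0.608% and 0.537% in Ad-Yap/Taz-KO NC, 0.393% and 0.389% in WT HFD, and 0.525% and 0.654% in Ad-Yap/Taz-KO HFD. The 2 WT HFD libraries were thus the lowest of the 8, and all the others lay above 0.52%. Rows of the mitochondrial genome and the lipid desaturase gene Scd1 weigh on this share. Scd1 alone held 12.4% and 12.3% of the counts in WT HFD and 1.06% to 2.95% in the other 6 libraries, while mitochondrial rows held 9.51% to 18.7%. With both left out, the share was 0.608% and 0.629% in WT NC, 0.704% and 0.650% in Ad-Yap/Taz-KO NC, 0.508% and 0.498% in WT HFD, and 0.670% and 0.795% in Ad-Yap/Taz-KO HFD. Both WT HFD libraries again lay below the other 6. An exact two-sided permutation test of 2 against 2 libraries cannot give a p below 0.333, and none was run.

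The balance between the subunits also differed between the groups on HFD. The summed normalized counts of the 46 large-subunit genes were 1.76 and 1.75 times those of the 31 small-subunit genes in WT HFD and 1.60 times in both Ad-Yap/Taz-KO HFD libraries. On NC the ratio was 1.65 and 1.71 for WT libraries, 1.63 and 1.71 for those of the knockout, and these groups overlapped. Rplp2 and Rps14 weigh heavily in these sums. Without both genes, the ratio was 1.59 in each WT HFD library and 1.51 and 1.54 in Ad-Yap/Taz-KO HFD, so that the gap on HFD was smaller and the order stayed. WT NC then gave 1.61 and 1.63, and Ad-Yap/Taz-KO NC 1.57 and 1.59.

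**Figure D1:**
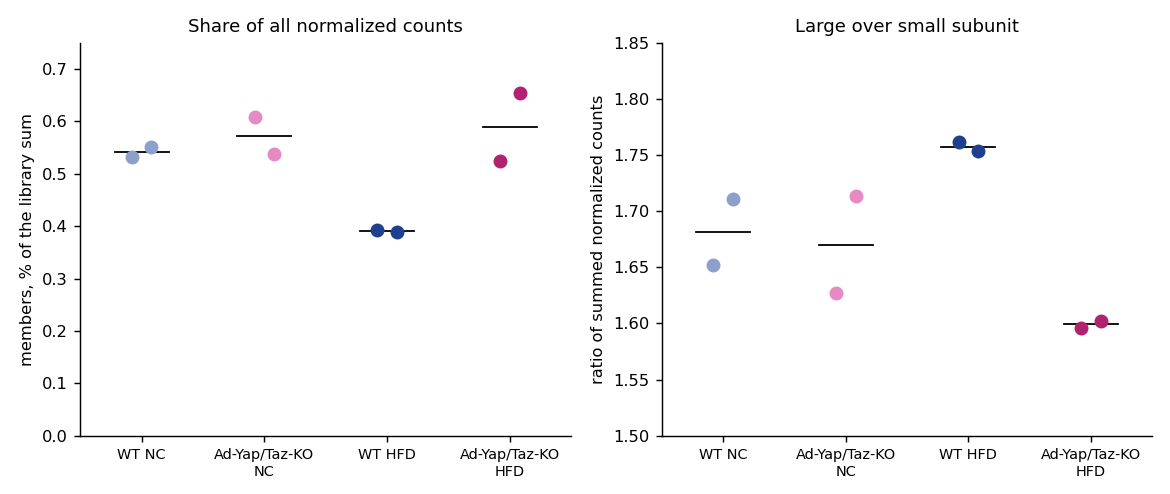
Share of all normalized counts held by the 86 genes, in percent (left), and ratio of the summed normalized counts of large-subunit to small-subunit genes (right, the axis does not start at 0), by group, with 1 point per library and a line at the mean of 2. WT HFD had the lowest share (0.393% and 0.389%) and the highest ratio (1.76 and 1.75), and Ad-Yap/Taz-KO HFD the lowest ratio (1.60 in both).

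Single ribosomal protein genes differed widely in their level. The highest mean normalized counts over the 8 libraries were those of Rplp2 (5370), Rpl4 (4338), Rplp0 (3816), Rpl26 (3739) and Rplp1 (2939). Rplp0, Rplp1 and Rplp2 form the acidic stalk of the large subunit, which recruits elongation factors. Per kilobase of the principal transcript, the highest values were those of Rpl26 (6169), Rplp1 (5889) and Rplp2 (5570), and Rps15 had 2965. The 5 genes with the highest counts held 23.0% of the sum of all members, and the 17 highest held 50.9%. Medians per kilobase were 839 for the large subunit and 1124 for the small subunit.

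Although nearly all of these proteins are needed in equal amounts, their genes had mean values per kilobase from 46.2 (Rpl24) to 6169 (Rpl26) across the 77 subunit genes. Ribosomal protein genes have many processed pseudogenes, and reads that aligned to several places or to several genes were not counted. Of all 75-base windows in a principal transcript, a median of 54.1% was found in no other annotated gene, with a range from 1.48% (Rps27) to 100%, as in Rps3. In 75 of the 77 genes at least 1 window was shared with another gene. Rpl24 had 19.1% unique windows and shared 47.0% of its exon bases with the gene Gm28037, and Rpl23a (72.1 per kilobase) had 18.3% and shared 62.3% with Tlcd1 and a small nucleolar RNA. Rpl13a, a frequent reference gene in PCR, had 86.3 per kilobase, with 43.7% unique windows and 35.4% of its exon bases in other genes. Across the 77 genes, however, the share of unique windows showed little relation to the level per kilobase (Spearman's rho = -0.036 and Pearson's r = -0.0042 over genes of the same 8 libraries, which are not independent replicates). Levels of single genes are therefore given as measured, and comparisons between libraries are made within a gene.

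Within the set, most genes varied less than a typical row. For the 80 genes whose mean reached 50, the highest of the 8 libraries was a median of 1.51 times the lowest, and 69 of the 80 stayed under 2 times. The SD of the log2 value over the 8 libraries had a median of 0.21, against 0.40 for all 12093 rows with such a mean, and 76 of the 80 genes lay under that second value. Expressed as a share of the members' sum, the most variable genes were Rps14 (SD of the log2 share 0.70), Rps28 (0.68), Rps29 (0.49), Rpl7l1 (0.45) and Rpl13a (0.42), and the median was 0.17. Rps14 held 2.66% and 2.21% of the members' sum in WT NC and 0.81% and 0.76% in WT HFD.

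**Figure D2:**
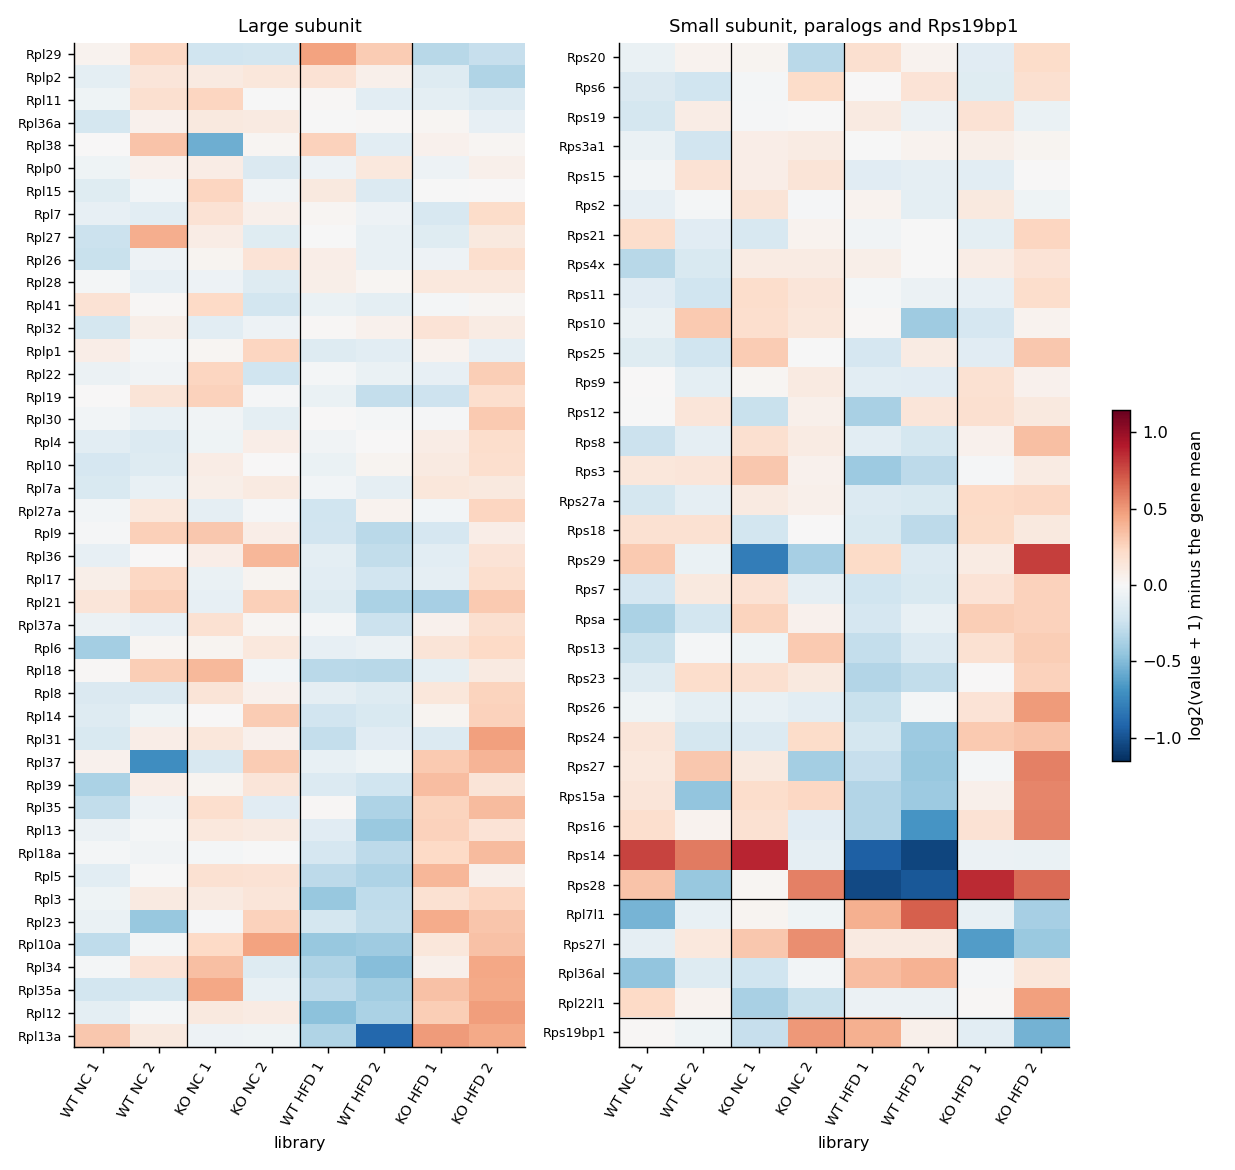
Normalized counts of 78 of the 80 genes whose mean reached 50, as log2(value + 1) minus the mean of the gene over the 8 libraries (colour), with libraries in columns (KO, Ad-Yap/Taz-KO) and genes ordered within each class by the difference between Ad-Yap/Taz-KO and WT on HFD. Most rows are pale, and the WT HFD columns are blue at the lower end of each subunit, most strongly for Rps14 and Rps28.

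The main comparison was that of Ad-Yap/Taz-KO with WT mice on HFD. A minority of the ribosomal protein genes passed the test, most of them higher in the knockout. Of 83 members with a mean of at least 5, 12 rose and 2 fell (limma, where a pass needed an adjusted p no higher than 0.05 together with a log2 fold change of 0.59 or more in either direction). Among all 18800 rows tested, 17.1% rose and 15.1% fell under the same rule, so that the share of members that rose (14.5%) was below that of all rows and the share that fell (2.41%) was far below. The median log2 fold change was 0.24 over the members and 0.09 over all rows, and 71 of 83 members were above 0. The library median over the members had a within-group SD of 0.11 (log2), and the set as a whole was not tested. Both Ad-Yap/Taz-KO libraries lay above both WT libraries for 48 of the 83 members, and below for 6, against 36.5% and 33% of all rows. The small subunit had a median of 0.40 with 6 of 31 genes that rose, and the large subunit 0.21 with 6 of 46 that rose and 1 that fell.

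How many members passed depended on the scaling of the libraries. With libraries set to the same total instead of the deposited size factors, 41 members rose and none fell (limma), and under that scaling 24.6% of all rows rose and 7.27% fell. The change of scaling moved the median of all rows from 0.09 to 0.47. Relative to the median of all rows, the members were higher by 0.15 with the deposited values and by 0.16 with the same total, and 60 and 62 of the 83 members lay above it. A scaling shifts the members and all rows nearly alike, so that it could hardly change this difference. This difference was 0.36 among rows with a mean of at least 50 (74 of 80 members above), 0.098 with GC content and length removed (51 of 83), 0.086 with no filter (54 of 86) and 0.073 without Ad-Yap/Taz-KO HFD 2 (50 of 83), so that its size depended on the setting and its direction did not. The count also rested on single libraries. Only 5 members passed without WT HFD 1, 4 without WT HFD 2 and 5 without Ad-Yap/Taz-KO HFD 2, and 3 passed (Rps28, Rps16 and Rpl12) when the 2 WT HFD libraries entered as their mean. The share of all rows that passed fell in the same refits, to 12.6% higher and 9.10% lower without WT HFD 1, 10.99% and 8.31% without WT HFD 2, 9.84% and 9.74% without Ad-Yap/Taz-KO HFD 2, and 10.2% and 8.14% with the mean. Macrophage markers (10 of 10) also rose in this comparison and 9 of 10 adipocyte markers fell. From WT HFD to Ad-Yap/Taz-KO HFD the summed markers of fibroblasts and progenitors went from 8730 and 8857 to between 19955 and 22948 (4 of 6 rose), those of endothelial cells from between 14401 and 15042 to between 19092 and 29519 (2 of 6 rose), and those of lymphocytes from 18 to between 85 and 103 (2 of 4 tested rose). Mesothelial markers summed to between 107 and 144 in WT HFD and between 319 and 640 in Ad-Yap/Taz-KO HFD (1 of 4 rose and 1 fell). Of 6 immediate-early genes, which respond to stress and handling of cells, 1 rose and 1 fell. The part of any of these in the values of the ribosomal protein genes was not tested.

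**Figure D3:**
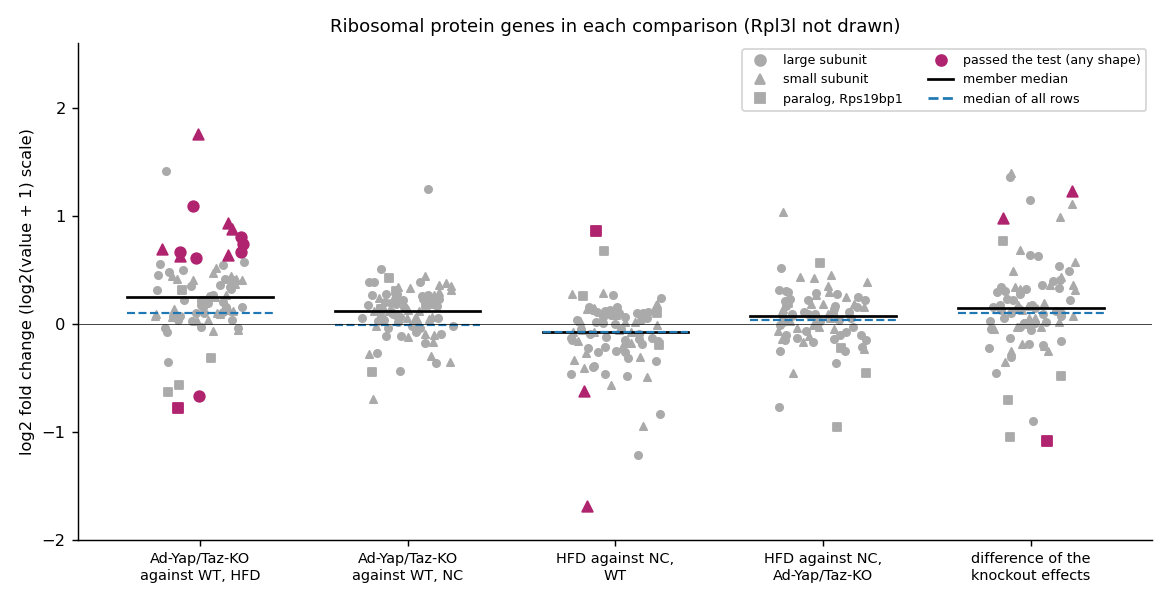
Log2 fold change of the tested genes in each comparison (Rpl3l, with 0 to 22 normalized counts, is not drawn), with coloured symbols for those that passed the test, a black line at the median of the members and a dashed line at the median of all 18800 rows. The members' median stood above that of all rows for the knockout comparison on HFD (0.24 against 0.09) and on NC (0.12 against -0.01), and 14, 0, 3, 0 and 3 genes passed in the 5 comparisons.

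Rps28 (ENSMUSG00000067288, chr17:33819027-33824562 in GRCm38), a small-subunit protein at the exit of the messenger RNA channel, had the largest rise of those that passed. It had 46 and 48 normalized counts in WT HFD, 173 and 150 in Ad-Yap/Taz-KO HFD, 120 and 70 in WT NC, and 97 and 143 in Ad-Yap/Taz-KO NC. The groups on HFD were far apart and those on NC overlapped. The log2 fold change on HFD was 1.76 (SE 0.37, adjusted p = 0.00291), and it passed in all 18 alternative fits. Rpl12 (ENSMUSG00000038900, chr2:32961559-32965345), which sits at the base of the stalk, had 718 and 774 in WT HFD and 1214 and 1394 in Ad-Yap/Taz-KO HFD, beside 923 and 979 in WT NC and 1080 and 1065 in Ad-Yap/Taz-KO NC. Both WT HFD libraries were the lowest of the 8 and both Ad-Yap/Taz-KO HFD libraries the highest. Its log2 fold change of 0.80 (SE 0.16, adjusted p = 0.00188) had the smallest p of all members, and it also passed in all 18.

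Rps14 (ENSMUSG00000024608, chr18:60774510-60778546), whose haploinsufficiency causes the anaemia of a human myelodysplastic syndrome, had 667 and 615 in WT HFD and 1223 and 1214 in Ad-Yap/Taz-KO HFD. Its log2 fold change was 0.93 (SE 0.25, adjusted p = 0.0115). Both groups on HFD lay below WT NC (2199 and 1934), so that the knockout libraries stood between the WT libraries of the 2 diets. Rps16 (ENSMUSG00000037563, chr7:28350652-28353155), whose tail reaches towards the decoding site, had 541 and 428 in WT HFD and 769 and 1018 in Ad-Yap/Taz-KO HFD, a log2 fold change of 0.88 (SE 0.20, adjusted p = 0.0053). Rpl13a (ENSMUSG00000074129, chr7:45125558-45128761), which also takes part in silencing translation of inflammatory messenger RNAs, had 68 and 46 in WT HFD and 122 and 118 in Ad-Yap/Taz-KO HFD, a log2 fold change of 1.09 (SE 0.35, adjusted p = 0.0283). These 3 did not pass in every alternative fit. Rps14 was lost without WT HFD 1 (adjusted p = 0.058) or WT HFD 2 (0.093), Rps16 without WT HFD 2 (0.083) or Ad-Yap/Taz-KO HFD 2 (0.052), and Rpl13a without WT HFD 2 (0.181), Ad-Yap/Taz-KO HFD 1 (0.090) or Ad-Yap/Taz-KO HFD 2 (0.104). Rps14 was also lost with no filter (0.057) and Rpl13a with the 2 groups fitted alone (0.055).

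The other 7 genes that rose on HFD had log2 fold changes from 0.61 to 0.74. They were Rpl35a (0.74), Rps15a (0.69), Rpl34 (0.66), Rpl10a (0.66), which forms the mobile stalk on the other side of the large subunit, Rps27 (0.63), Rps24 (0.63) and Rpl23 (0.61). Variants of Rpl35a and Rps24 in people cause Diamond-Blackfan anaemia. Rps24 had 615 and 527 in WT HFD and 872 and 888 in Ad-Yap/Taz-KO HFD, and Rpl23 639 and 604 against 985 and 916. Both calls ended without Ad-Yap/Taz-KO HFD 1 (log2 fold changes 0.64 for Rps24 and 0.56 for Rpl23). In all 7 genes both knockout libraries lay above both WT libraries. Each of these 7 lost its call when the WT HFD libraries were averaged and without WT HFD 1, WT HFD 2 or Ad-Yap/Taz-KO HFD 2, with log2 fold changes that stayed between 0.33 and 0.94 when a library was left out. Rps27 had the highest adjusted p (0.049), with 536 and 477 against 638 and 964, and only 1.48% of its windows were unique. It was also lost with the 2 groups fitted alone (0.077), with GC content and length removed (0.063) and without either WT NC library (0.074 and 0.075). With no filter Rpl34, Rps15a, Rps24 and Rps27 were lost (adjusted p from 0.053 to 0.119).

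The members that fell on HFD were Rpl7l1 and Rpl29. Rpl7l1 (ENSMUSG00000063888, chr17:46773907-46782656), a nucleolar paralog of Rpl7, had 875 and 1060 in WT HFD and 620 and 503 in Ad-Yap/Taz-KO HFD, a log2 fold change of -0.79 (SE 0.20, adjusted p = 0.0097). Rpl29 (ENSMUSG00000048758, chr9:106429454-106431568), also known as a heparin-binding protein at the cell surface, had 764 and 682 against 444 and 461, a log2 fold change of -0.67 (SE 0.18, adjusted p = 0.0105). With libraries set to the same total these values shrank to -0.40 and -0.29 and neither passed (adjusted p = 0.134 and 0.244). Rpl29 was also lost without WT HFD 1 (adjusted p = 0.103), and Rpl7l1 without WT HFD 2 (0.118) or Ad-Yap/Taz-KO HFD 2 (0.072) and with GC content and length removed (0.061). Rps27l, a paralog induced by p53, had 81 in both WT HFD libraries and 48 and 56 in Ad-Yap/Taz-KO HFD (log2 fold change -0.63, adjusted p = 0.187). It was the third lowest and did not pass.

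**Figure D4:**
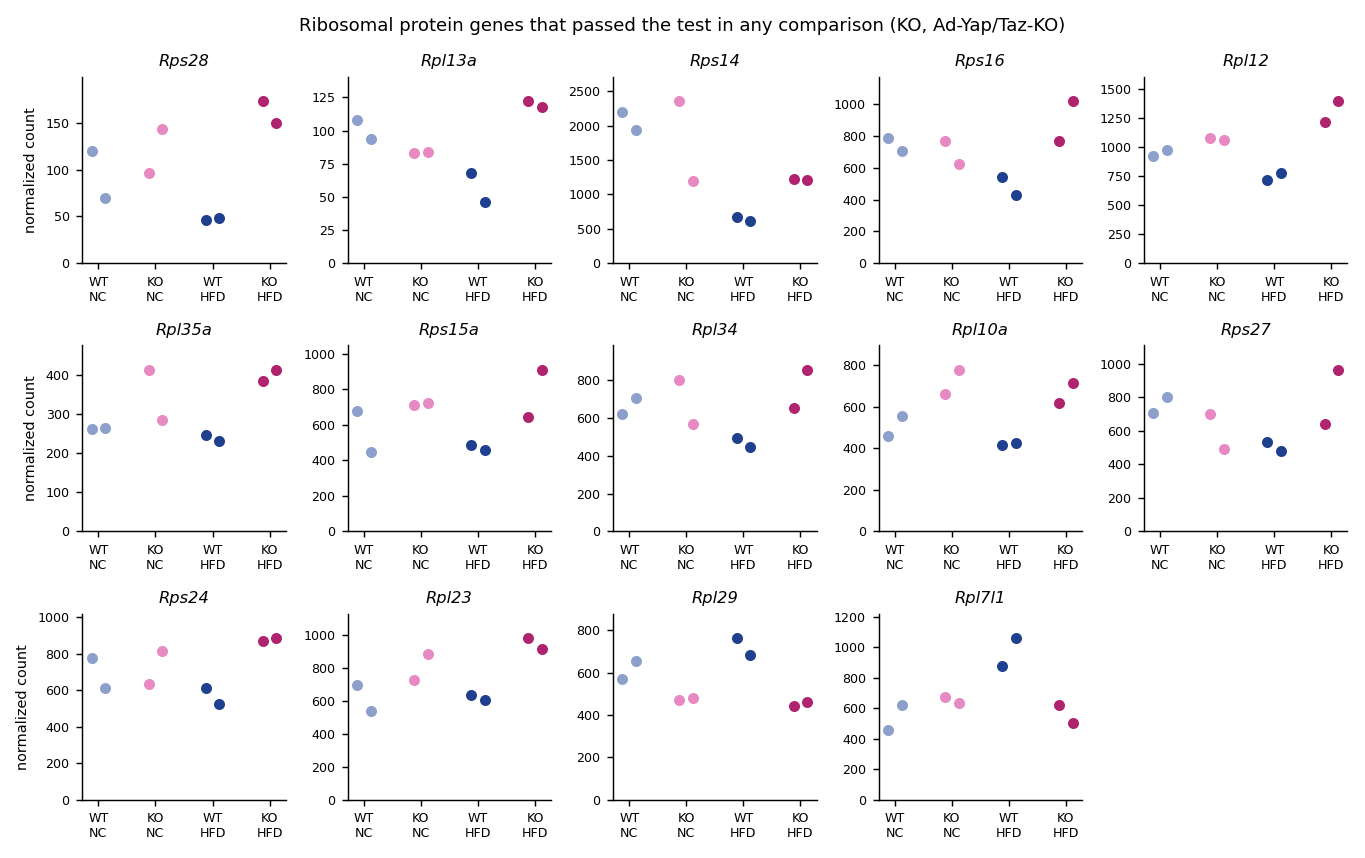
Normalized counts of the 14 genes that passed the test in any comparison, by group, with 1 point per library, y axes from 0 and panels ordered by the log2 fold change on HFD. In the first 12 panels both Ad-Yap/Taz-KO HFD libraries lie above both WT HFD libraries, and in the panels of Rpl29 and Rpl7l1 both lie below.

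Of the genes chosen for their role, the stalk protein Rplp0 had 3660 and 4156 in WT HFD and 3662 and 3977 in Ad-Yap/Taz-KO HFD (log2 fold change -0.03, SE 0.15). Rplp1 stood at 0.11 and did not pass. Rplp2, the third protein of the stalk, had 5981 and 5540 against 4823 and 4200 (-0.35, adjusted p = 0.087), and its groups did not overlap. Rps6, the substrate of the S6 kinases downstream of mTORC1, had 1144 and 1272 against 1036 and 1291 (-0.06, SE 0.17). Of the genes for proteins that bind MDM2, Rpl23 passed, as given above. Rpl5 had 709 and 681 against 1141 and 912 (0.55, adjusted p = 0.0224, short of the fold required), while Rpl11 had 726 and 660 against 666 and 645 (-0.08, SE 0.17). Rpsa, also known as a laminin receptor, had 2512 and 2713 against 3500 and 3460 (0.41, adjusted p = 0.0435), and Rps27a, which is made as a fusion with ubiquitin, 1176 and 1162 against 1540 and 1548 (0.40, adjusted p = 0.0481). Both met the adjusted p but not the fold. By adjusted p alone 19 members were higher and 2 lower, against 17.8% and 16.9% of all rows.

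The reference genes Rps18 and Rpl32 had log2 fold changes of 0.40 (SE 0.18) and 0.10 (SE 0.15). Rps19, the gene most often mutated in Diamond-Blackfan anaemia, stood at 0.02 (SE 0.17). The 4 members on chromosome X were Rpl10 (0.17), Rpl36a (-0.04), Rpl39 (0.45) and Rps4x (0.09), and none passed. Of the pairs of parent and paralog, Rpl3 had 1374 and 1519 against 2101 and 2201 (0.57, adjusted p = 0.0090, short of the fold required) and its muscle paralog Rpl3l 5 and 0 against 12 and 9. Rpl7 stood at 0.03 (SE 0.16) where Rpl7l1 fell. Rpl22 stood at 0.15 and Rpl22l1, whose transcript Rpl22 represses, at 0.31, and neither passed. Rpl36al had 300 and 309 against 232 and 257 (-0.32, adjusted p = 0.312). Rpl23a had the highest log2 fold change of the large-subunit genes (1.41, SE 0.59) from 24 and 12 against 29 and 76, and did not pass (adjusted p = 0.0813). Rpl39l, a testis paralog, was at 0 in 7 libraries and at 8 in the other, and Rpl6l and Rps27rt did not exceed 2, so that these 3 were not tested.

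The start sites of the genes that rose are shown because the run of pyrimidines at the cap is the shared feature of these messenger RNAs. RefSeq gave a promoter window in GRCm38.p6 for 65 of the 86 members (the first where there were several), and a C followed by at least 4 pyrimidines began within 10 bases of the start in 36 of them (55.4%), against 30.8% of 27025 promoters of the same length. Within 2 bases of the start, it was 21 members (32.3%), against 8.96% of all promoters. Of the 12 genes that rose on HFD, 11 had an entry and 6 of these had such a run within 2 bases. They follow from 60 bases before to 15 bases from the start, 5′ to 3′ on the strand of the gene. Capitals mark the pyrimidines from the matching C nearest the start, and in Rpl12, Rps24 and Rps27 further pyrimidines lie directly before them. Rpl7l1, which fell and had no such run there, is given for comparison.
Rpl12 (chr2:32961652-32961726, plus strand): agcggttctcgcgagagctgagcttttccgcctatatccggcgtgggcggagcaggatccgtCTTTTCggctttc
Rpl13a (chr7:45128731-45128805, minus strand): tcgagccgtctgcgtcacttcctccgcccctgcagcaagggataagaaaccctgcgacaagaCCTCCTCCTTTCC
Rpl34 (chr3:130730384-130730458, minus strand): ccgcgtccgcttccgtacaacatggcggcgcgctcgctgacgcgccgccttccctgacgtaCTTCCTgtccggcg
Rps15a (chr7:118116133-118116207, minus strand): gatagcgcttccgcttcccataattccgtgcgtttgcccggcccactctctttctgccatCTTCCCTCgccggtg
Rps24 (chr14:24490618-24490692, plus strand): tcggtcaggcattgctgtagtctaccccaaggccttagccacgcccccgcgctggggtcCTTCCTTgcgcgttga
Rps27 (chr3:90213634-90213708, minus strand): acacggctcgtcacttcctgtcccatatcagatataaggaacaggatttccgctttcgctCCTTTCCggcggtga
Rpl7l1 (chr17:46782642-46782716, minus strand): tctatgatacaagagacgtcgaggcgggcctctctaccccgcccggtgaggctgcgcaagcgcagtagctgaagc

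Other motifs were counted in the same windows of 300 bases, on both strands. The ETS letters CCGGAAG were in 25 of 65 member promoters (38.5%), against 9.12% of all promoters, and the YY1 letters AAGATGGC in 5 (7.69% against 2.88%). The TEAD letters GGAATG, bound by the partners of YAP and TAZ, were in 6 (9.23% against 14.6%), the TATA letters TATAAA in 6 (9.23% against 14.2%) and the E-box CACGTG in 5 (7.69% against 7.24%). Of the 11 genes that rose on HFD and had an entry, none held the ETS letters, 4 held the YY1 letters (Rpl13a, Rpl35a, Rps15a and Rps27), 3 the TEAD letters (Rps16, Rps24 and Rps27), 3 the E-box and 1 the TATA letters. These are matches of letters in a window and not sites of binding.

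On NC the same comparison gave no call. None of the 83 members passed (limma), against 3.21% of all rows that rose and 1.5% that fell, and 4 members had an unadjusted p under 0.05. The median log2 fold change was 0.12 over the members and -0.01 over all rows, 60 of the 83 were above 0, and both knockout libraries lay above both WT libraries for 32 members and below for 7, against 22.8% and 22.2% of all rows. Rpsa had the smallest p, with 2236 and 2483 in WT NC and 3447 and 2980 in Ad-Yap/Taz-KO NC (log2 fold change 0.44, SE 0.15, adjusted p = 0.126). The highest values were those of Rpl24 (17 and 25 against 45 and 56, 1.24), Rpl10a (461 and 558 against 664 and 780, 0.50) and Rpsa, and the lowest those of Rpl3l (-1.84, from 4 and 22 against 0 and 8), Rps29 (264 and 203 against 123 and 164, -0.70) and Rpl22l1 (145 and 127 against 95 and 103, -0.45). None of these passed. Without Ad-Yap/Taz-KO NC 1, Rps14 alone was called. In this comparison all 10 macrophage markers rose and all 6 immediate-early genes fell (summed 155572 to 174912 in WT NC and 75153 to 76107 in Ad-Yap/Taz-KO NC), and their part in the values above was not tested.

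In WT mice, few ribosomal protein genes passed for HFD against NC. Rpl7l1 rose and Rps14 and Rps16 fell, which is 1 member up and 2 down (limma), against 8.74% and 9.22% of all rows, and the median log2 fold change was -0.07 over the members and -0.08 over all rows. Both HFD libraries lay above both NC libraries for 15 members and below for 29, against 31.4% and 33.6% of all rows. Rps14 fell from 2199 and 1934 to 667 and 615, a log2 fold change of -1.69 (SE 0.25, adjusted p = 0.0011), which passed in all 18 alternative fits. Rps16 fell from 785 and 704 to 541 and 428 (-0.63, SE 0.20, adjusted p = 0.0475), and Rpl7l1 rose from 454 and 619 to 875 and 1060 (0.86, SE 0.20, adjusted p = 0.0126). Rps16 was lost without any 1 of the 4 WT libraries (log2 fold change from -0.80 to -0.46). Rpl7l1 was lost without WT NC 1, WT HFD 1 or WT HFD 2 (adjusted p of at most 0.142). The next values on the upper side were those of Rpl36al (171 and 212 against 300 and 309, 0.67, adjusted p = 0.058) and Rps6 (0.28), and on the lower side that of Rpl23a (49 and 34 against 24 and 12, -1.21, adjusted p = 0.162) and, with under 30 counts in all libraries, Rpl3l (-2.13). With libraries set to the same total, 23 members fell and none rose, against 19.0% and 2.5% of all rows, and the median of all rows moved from -0.08 to -0.48. Relative to the median of all rows, the members stood at 0.0043 with the deposited values and -0.0092 with the same total, a scaling that shifts all rows nearly alike. They stood at -0.17 among rows with a mean of at least 50 (18 of 80 members above) and at 0.10 with GC content and length removed (52 of 83), so that the direction depended on the setting. Markers moved in this comparison too. From WT NC to WT HFD 9 of 10 macrophage markers fell, as did 4 of 6 endothelial markers, 3 of 6 markers of fibroblasts and progenitors (1 rose), 1 of 4 mesothelial markers, 1 of 4 tested lymphocyte markers and all 6 immediate-early genes (summed 155572 to 174912 against 90065 to 90294), while 2 of 10 adipocyte markers rose. Their part in the calls was not tested.

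In Ad-Yap/Taz-KO mice, no member passed for HFD against NC (limma), against 0.383% of all rows that rose and 0.691% that fell, and 4 had an unadjusted p under 0.05. The median was 0.07 over the members and 0.03 over all rows, and both HFD libraries lay above both NC libraries for 28 members and below for 10, against 22.7% and 19.3% of all rows. Rps29 had 123 and 164 on NC and 228 and 371 on HFD (1.03, SE 0.30, adjusted p = 0.117), and was called only without Ad-Yap/Taz-KO HFD 1. Rps14 had 2352 and 1195 on NC and 1223 and 1214 on HFD (-0.46), and the 2 NC libraries differed from each other more than the groups did. The other extreme values were those of Rpl22l1 (0.56), Rps27l (-0.96, adjusted p = 0.215), Rpl24 (-0.77) and Rpl3l (1.93), none of which passed.

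The effect of the knockout was tested for a difference between the diets. Of the 83 members, 3 passed (limma), Rps14 (1.23, SE 0.35, adjusted p = 0.0311) and Rps16 (0.98, SE 0.29, adjusted p = 0.0359) with a higher effect on HFD, and Rpl7l1 (-1.08, SE 0.29, adjusted p = 0.0237) with a lower one. Among all rows 8.69% and 8.73% passed in these directions. For the other members that rose on HFD, the difference between the diets was not past the threshold, with Rps28 at 1.40 (adjusted p = 0.0805) and Rpl13a at 1.36 (adjusted p = 0.0732). Rps27l (-1.05), Rpl24 (-0.90) and Rpl3l (4.06) had the other extreme values and did not pass. Averaging the WT HFD libraries removed all 3 calls. Between 0 and 6 members passed when a library was left out (1.66% to 11.9% of all rows higher and 1.154% to 12.9% lower), and no call was made without WT NC 1, Ad-Yap/Taz-KO NC 2, WT HFD 1, WT HFD 2 or Ad-Yap/Taz-KO HFD 2. With the same total 15 members passed, all with a higher effect on HFD, against 13.9% of all rows that were higher and 3.29% that were lower. Of the markers, 9 of 10 for macrophages, 5 of 6 for endothelial cells, 5 of 6 for fibroblasts and progenitors, 1 of 4 for mesothelial cells and 4 of 6 immediate-early genes also had a higher effect on HFD, while 9 of 10 adipocyte markers and 1 of 6 for fibroblasts and progenitors had a lower one, and their part was not tested.

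Genes of related function were taken from fixed lists and compared on HFD, where 17.1% of all rows rose and 15.1% fell. Of ribosomal proteins with other symbols, Rack1, a scaffold on the small subunit, rose (2166 and 2282 against 3682 and 3059, log2 fold change 0.59, adjusted p = 0.0092). Its call was lost without WT HFD 1 (adjusted p = 0.089) or WT HFD 2 (0.063), with the WT HFD libraries averaged (0.080), and without Ad-Yap/Taz-KO HFD 1, where the log2 fold change was 0.46. Fau had 1031 and 1049 against 1532 and 1452 (0.52) and missed the fold required. Of 39 ribosome biogenesis factors, 6 rose and 1 fell, with a median of 0.27, and with these deposited values the share that rose was below that of all rows. With the same total 19 rose and none fell, against 24.6% and 7.27% of all rows. With GC content and length removed 16 rose, against 20.8% of all rows, so that the order was reversed under both settings. The count changed when single libraries were left out, with medians from 0.14 without WT HFD 2 to 0.41 without WT HFD 1. Fbl, the methyltransferase fibrillarin, had 187 and 177 in WT HFD and 419 and 488 in Ad-Yap/Taz-KO HFD (1.31, adjusted p = 0.00072), Nip7 95 and 49 against 149 and 181 (1.25), and Nop58, a partner of Fbl in the same particle, 758 and 721 against 1232 and 1767 (1.00). Ltv1, which matures the small subunit, fell (621 and 623 against 487 and 344, -0.60), and Nop10 was lower without passing (-0.67). Of 14 genes of RNA polymerase I and its factors none passed, with a median of -0.43, from Taf1c (-0.73) and Rrn3 (-0.59) to Polr1c (0.44) and Taf1a (0.66). That median was -0.04 with the same total, where 1 gene rose, -0.18 with GC content and length removed, where 1 rose, and -0.25 without WT HFD 2, and 2 genes fell without Ad-Yap/Taz-KO HFD 1. By limma 2 of the 14 had an unadjusted p under 0.05.

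Noncoding hosts of small nucleolar RNAs share the pyrimidine start with ribosomal protein genes. Of 10 tested, 5 rose and none fell, with a median of 0.77. Only 3 rose without WT HFD 2, without Ad-Yap/Taz-KO HFD 2 or with the WT HFD libraries averaged. Snhg15 had 8 and 11 in WT HFD and 88 and 90 in Ad-Yap/Taz-KO HFD (3.11, adjusted p = 0.00034), and Snhg17 65 and 39 against 184 and 317 (2.24). Gas5 had 471 and 564 against 721 and 876 (0.62, adjusted p = 0.018). Snhg5 (-0.26) and Snhg12 (0.14) had the lowest values. Of 18 translation factors and other genes of the same class of messenger RNAs, 2 rose, Hnrnpa1 (431 and 366 against 639 and 960, 0.98) and Tpt1 (5208 and 5238 against 7687 and 8830, 0.66). Another 2 fell, Nap1l1 (5151 and 5103 against 1732 and 1552, -1.64) and Eif3e (1563 and 1719 against 1073 and 1013, -0.65). These counts changed when single libraries were left out.

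Of 76 tested genes for proteins of the mitochondrial ribosome, none rose and 28 fell on HFD, with a median log2 fold change of -0.63. Mrps6 had 1012 and 1079 in WT HFD and 316 and 317 in Ad-Yap/Taz-KO HFD (-1.72, adjusted p = 0.00015), and Mrps21 295 and 339 against 102 and 131 (-1.44, adjusted p = 0.0012). Mrps36 (0.67) and Mrpl23 (0.57) had the highest values and did not pass. The count fell to 9 lower and 1 higher with libraries set to the same total (median -0.24), to 8 when the WT HFD libraries entered as their mean, and to between 8 and 10 without either WT HFD library or Ad-Yap/Taz-KO HFD 2. A list of 21 genes for mTORC1 and its control of translation also holds Myc, Mycn and Max. Of these 21, 8 fell and none rose, with a median of -0.48 (4 fell and 1 rose with the same total, median -0.10, and 6 fell with GC content and length removed, median -0.18). They included Mtor itself (3243 and 3384 against 2086 and 1549, -0.88), Eif4ebp1, the repressor of cap-dependent translation (3157 and 2912 against 1749 and 995, -1.20), and Eef2k, the kinase that slows elongation (978 and 1070 against 439 and 450, -1.20). Eif4e (0.11) and Max (0.23) had the highest values. These lists and the cytosolic set were measured in the same libraries, and the difference between them was not tested. With the same total the median of the members was 0.63, that of the mitochondrial list -0.24 and that of all rows 0.47.

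**Figure D5:**
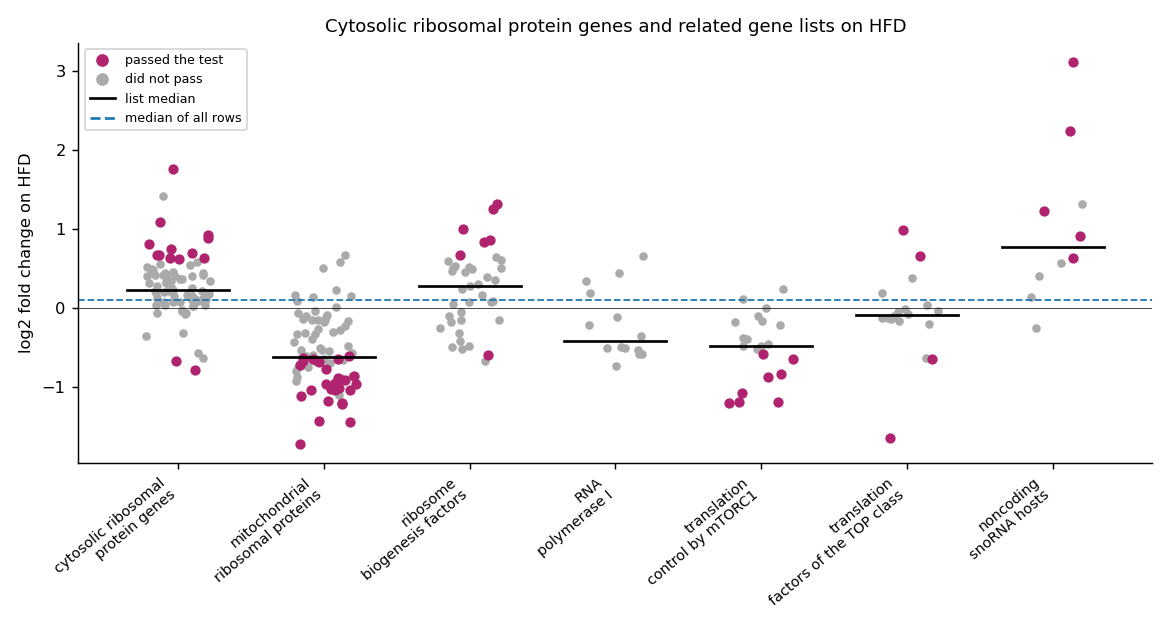
Log2 fold change between Ad-Yap/Taz-KO and WT libraries on HFD for the cytosolic ribosomal protein genes (without Rpl3l) and for 6 lists of related genes, with coloured points for genes that passed the test, a black line at each list's median and a dashed line at the median of all rows (0.09). Mitochondrial ribosomal proteins lie mostly below 0 (median -0.63, 28 of 76 passed), and snoRNA hosts (0.77) above.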

How the data were processed

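RNA was sequenced after ribosomal RNA removal (RiboGone) with a stranded total RNA kit (SMARTer) as single 75-base reads. Per the labels and the study's methods, the authors aligned reads to GRCm38 with STAR 2.5.2b, counted them over exons with featureCounts 1.5.1, without reads on several genes or places, and normalized with DESeq2 1.14.1. Whether counting used strand is not given in the sources used here. The deposited values are a score, in that the authors scaled each library's counts by its size factor and rounded them, so no count model was used. Here log2(value + 1) of the 18800 rows with a mean of at least 5 was fitted with limma 3.58.1 (R 4.3.3), 4 group means, trended prior, Benjamini-Hochberg adjustment over all rows. There were 4 residual and 8.59 prior degrees of freedom. Fold changes are on this scale and understate those of low genes. The fit was tested on simulated data. Windows and overlaps came from GENCODE vM21, in which all 86 members were found.

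Members and lists were chosen with earlier results of these data known. The text names the 3 highest and 3 lowest members per comparison, the 5 of highest level, genes and paralog pairs fixed by role, the 2 highest and 2 lowest genes of each list, and all members that passed, the last of which were named after their values were seen, as were a few list genes. Some genes that these rules pick are not reported here. Each library was left out in turn, and scaling, pseudocount, filter, block, GC content and length were varied. Leaving out a library of another group, fitting 2 groups alone or adding the block changes the error of a comparison and not its fold change. Passing in these fits is therefore no independent support. The numbers shared by samples of different groups did not pair them (correlations of deviations between -0.11 and 0.04). The 2 libraries of each group differed beyond counting noise. Precision rests on 2 libraries per group.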

Additional observations from a re-analysis of the deposited data

Results flagged for a closer look

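For 3 ribosomal protein genes the log2 fold change between knockout and WT differed between HFD and NC, by a test of the difference itself (limma, 4 groups in 1 fit). Of 83 members 2 had a higher effect on HFD and 1 a lower one, against 8.69% and 8.73% of all rows. In this test 9 of 10 macrophage markers were also higher and 9 of 10 adipocyte markers lower, and their part was not tested. For Rps14 the difference of the log2 fold changes was 1.23 (adjusted p = 0.0311), from -0.30 on NC and 0.93 on HFD. For Rps16 it was 0.98 (adjusted p = 0.0359), from -0.10 on NC and 0.88 on HFD. For Rpl7l1 it was -1.08 (adjusted p = 0.0237), from 0.30 on NC and -0.79 on HFD. In Rps14 the 2 Ad-Yap/Taz-KO NC libraries (2352 and 1195) lay far apart. The difference was called in 7 of 9 alternatives for Rps14, in 6 of 9 for Rps16 and in 4 of 9 for Rpl7l1, and in 2, 2 and 3 of the 8 fits that left out a library.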

How the results depend on the processing

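Each comparison was refitted with limma under other settings. Scaling moved most. With libraries set to the same total, 41 members passed for the knockout on HFD, 23 for HFD against NC in WT and 15 for the interaction, and the medians were 0.63, -0.49 and 0.58. Leaving out mitochondrial rows and Scd1 from that total, a choice made after seeing the data, gave 36, 13 and 11 members and medians of 0.58, -0.31 and 0.48. Of all rows 23.8% then rose and 7.99% fell on HFD, 4.06% and 13.7% for HFD against NC in WT, and 13.0% and 4.19% in the interaction. The upper quartile gave 5 members for HFD against NC in WT (median -0.20, with 5.79% of all rows higher and 11.7% lower) and 7 for the interaction (median 0.28, 10.48% and 6.85%). With GC content and length removed, these were 5 (5.13% and 11.9% of all rows) and 5 (11.1% and 4.89%). The median on HFD was then 0.38, beside 0.28 for all rows, and in the interaction 0.22, below the 0.29 of all rows. With no filter, 9 members passed on HFD (8.65% and 7.82% of all rows) and 0 in the interaction (1.32% and 1.06%). A mean of at least 50 gave 5 in the interaction (12.4% and 15.2%). Averaging the WT HFD libraries to 1 sample gave 3 (10.2% and 8.14%), 1 (1.12% and 1.75%) and 0 (1.96% and 0.787%). With adjusted p alone, 21 members passed on HFD. No member that passed changed its direction under any setting.

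Without 1 library, where the lone sample is taken to vary like the others, the counts ran from 4 to 16 on HFD, 0 to 1 on NC, 1 to 4 for HFD against NC in WT, 0 to 1 in Ad-Yap/Taz-KO and 0 to 6 for the interaction. The share of all rows called higher ran from 9.84% to 18.2%, 1.63% to 3.44%, 1.46% to 9.97%, 0.016% to 3.14% and 1.66% to 11.9% in these comparisons, and that called lower from 8.31% to 16.7%, 0.394% to 2.11%, 1.70% to 10.97%, 0.059% to 3.24% and 1.154% to 12.9%. The medians ran from 0.14 to 0.35, 0.05 to 0.17, -0.11 to -0.03, 0.008 to 0.15 and 0.033 to 0.20. The replicate number as a block gave 13, 0, 2, 0 and 2 members with medians of 0.24, 0.12, -0.07, 0.07 and 0.15, where 16.1%, 2.73%, 7.46%, 0.223% and 7.06% of all rows were higher and 14.2%, 1.10%, 8.15%, 0.372% and 6.596% lower. The block ended the calls of Rps27 on HFD (adjusted p = 0.070), of Rps16 for HFD against NC in WT (0.068) and of Rps16 in the interaction (0.054). The samples share only a number, and no pairing was assumed.

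Group means of the members' share were 0.541% in WT NC, 0.572% in Ad-Yap/Taz-KO NC, 0.391% in WT HFD and 0.589% in Ad-Yap/Taz-KO HFD. With nuclear protein-coding rows as the denominator they were 0.646%, 0.718%, 0.453% and 0.762%, and without the 3 highest members 0.458%, 0.486%, 0.324% and 0.507%. With 2 libraries per group, calls rest on the spread pooled over all groups. Reads shared with pseudogenes were not counted, which lowers levels by an unknown amount, and low values such as those of Rpl3l and Rpl23a carry large errors.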

Other observations

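The lists of related genes were also compared on HFD against NC, where 8.74% of all rows rose and 9.22% fell in WT. Noncoding hosts of small nucleolar RNAs were all below 0 (10 of 10 tested, median log2 fold change -0.84), and 5 fell (limma), among them Gas5 (-0.80), Snhg15 (-2.29) and Zfas1 (-1.37). Between 0 and 5 fell when a library was left out, none of them without WT NC 1, and 8 fell with the same total. In the same comparison all 6 immediate-early genes and 9 of 10 macrophage markers fell, and their part was not tested. In Ad-Yap/Taz-KO none of the 10 passed, 0 had an unadjusted p under 0.05 by limma, and the median was 0.26. Mitochondrial ribosomal proteins had a median of 0.37 in WT, where 8 rose and 1 fell of 76 (none rose and 5 fell with the same total, median -0.04, and none rose without WT NC 1, WT HFD 1 or WT HFD 2), and of -0.37 in Ad-Yap/Taz-KO, where none passed by limma and 17 had an unadjusted p under 0.05. Of 39 ribosome biogenesis factors, 1 rose and 3 fell in WT on HFD (median 0.016), among the latter Fbl (-0.86) and Nop58 (-1.05). None of the 39 fell without WT NC 1, without WT HFD 2 or with the WT HFD libraries averaged.

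Rows for pseudogenes of the members were mostly empty. Of 168 such rows, 22 reached a mean of 5 and were tested. On HFD in Ad-Yap/Taz-KO against WT, where 17.1% of all rows rose, 2 of the 22 rose, Rpl31-ps6 (1 and 2 normalized counts against 13 and 20, adjusted p = 0.0214) and Rpl26-ps4 (1 and 1 against 13 and 16, adjusted p = 0.035). Neither passed without WT HFD 1, Ad-Yap/Taz-KO HFD 1 or Ad-Yap/Taz-KO HFD 2 or with the WT HFD libraries averaged, and 1 passed without WT HFD 2. The highest value was that of Rpl13-ps1 (0 and 0 against 17 and 3) and a low one that of Rpl22-ps1 (6 and 8 against 2 and 2), neither of which passed. Genes with under 50% unique windows (36 of 77) had a median log2 fold change on HFD of 0.24 and the other 41 of 0.25.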
